A study of Rattus norvegicus with 50 samples.

Results

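Retinoid uptake and metabolism genes are the set that brings vitamin A into a cell, turns it into retinoic acid and removes it again. The set was taken as a fixed list of 8 genes: Stra6, Rbp4, Rdh10, Dhrs3, Aldh1a1, Aldh1a2, Cyp26b1 and Rarb. Of these, 7 had a probe set assigned to that gene alone and were measured, among 13438 genes measured in all, and Rarb had no such probe set. Where a gene had several probe sets, the brightest on average was read. The measurements come from 50 Affymetrix HT rat arrays, 5 for each of 10 groups, with 1 array per animal. All groups were male Fischer 344 rats, about 7 to 8 weeks old on receipt, and they differed by the concentration of inhaled nickel subsulfide (Ni3S2) and by its duration. Exposure ran for 6 hours per day on 5 days per week, for 1 week (5 exposure days) or 4 weeks (20 exposure days), at 0 mg/m3 (control, air without Ni3S2), 0.04 mg/m3 (about 0.03 mg Ni/m3), 0.08 mg/m3 (0.06), 0.15 mg/m3 (0.11) or 0.60 mg/m3 (0.44). Each duration had its own controls, so the 5 control animals of a duration serve all 4 of its comparisons. The RNA came from micro-dissected distal airway tissue of the lung, called broncho-alveolar cells in the labels, and the 5 animals per group were those with the best RNA quality among 8. The arrays give log2 intensities, in which a difference of 1 is a doubling.

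Vitamin A reaches tissues as retinol bound to RBP4, the plasma carrier, and STRA6 is the membrane receptor that takes retinol from it. RDH10 oxidises retinol to retinal, DHRS3 reduces retinal back to retinol, and the aldehyde dehydrogenases ALDH1A1 and ALDH1A2 oxidise retinal to retinoic acid. Retinoic acid binds nuclear receptors such as RARB, and CYP26B1 degrades it. In the lung this pathway is known for its roles in branching and in the formation of alveoli. Stra6, Dhrs3, Cyp26b1 and Rarb are known retinoic acid-induced genes, and Rarb carries the textbook response element, a direct repeat of a core hexamer with 5 bases between the copies.

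The sequences below show that element and, for comparison, the 250 bases before the start site of the pair of members that moved most closely together (Stra6 and Dhrs3) and of Aldh1a1, which moved against them in the controls. All are from RefSeq, rat build GRCr8, printed 5′ to 3′ on the gene's strand, which is the plus strand for these genes. Capitals mark a core hexamer. It was searched on both strands as AGGTCA, with the further spellings AGTTCA (as in Stra6), GGGTCA (present just before the Rarb start) and GGTTCA (the first copy in Rarb). Rarb, just after the listed start, chr15:11336410-11336438:
Rarb: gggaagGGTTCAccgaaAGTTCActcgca
Stra6, chr8:67444507-67444756:
Stra6: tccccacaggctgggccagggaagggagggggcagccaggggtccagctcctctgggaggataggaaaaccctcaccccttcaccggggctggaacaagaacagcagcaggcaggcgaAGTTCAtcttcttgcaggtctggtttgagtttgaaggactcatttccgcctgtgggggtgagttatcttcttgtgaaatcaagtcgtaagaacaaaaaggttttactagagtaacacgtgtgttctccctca
Dhrs3, chr5:162031603-162031852:
Dhrs3: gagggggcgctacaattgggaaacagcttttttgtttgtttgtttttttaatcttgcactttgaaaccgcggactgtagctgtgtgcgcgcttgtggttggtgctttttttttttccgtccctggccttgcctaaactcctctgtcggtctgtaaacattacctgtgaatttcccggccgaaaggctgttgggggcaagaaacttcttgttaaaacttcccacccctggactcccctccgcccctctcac
Aldh1a1, chr1:227537370-227537619:
Aldh1a1: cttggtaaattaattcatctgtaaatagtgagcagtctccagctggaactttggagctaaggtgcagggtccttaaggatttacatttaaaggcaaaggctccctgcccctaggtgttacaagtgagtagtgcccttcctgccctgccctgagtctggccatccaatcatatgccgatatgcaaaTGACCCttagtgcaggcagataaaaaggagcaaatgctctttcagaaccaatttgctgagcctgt

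In windows from 250 bases before to 50 bases after the start, the direct repeat with 5 bases between the hexamers was present in 0.382% of 33469 RefSeq windows and, of the 7 members with a window, in Rarb. The spellings searched include both copies of the Rarb element, so its match was fixed in advance. Rdh10 had no window. The repeat in Rarb occupied bases 25 to 41 after the listed start. A single hexamer on either strand was present in 44.4% of all windows. Stra6 held it as AGTTCA at bases -132 to -127, and Aldh1a1 held it on the opposite strand at bases -65 to -60, where it reads TGACCC on the gene's strand. Dhrs3, Rbp4, Aldh1a2 and Cyp26b1 held none in this window. These matches describe letters in a window and were not tested for binding.

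The arrays were of lung: the 10 alveolar type 2 markers averaged 10.29 to 11.06 log2 units per array and the 6 club cell markers measured averaged 11.14 to 12.14. The control arrays of 1 week stood apart from most others, which touches every comparison with them. On the leading axis of variation over all genes, which carried 63.5% of the variance, the 1-week controls scored from -75.21 to -43.56 and the arrays of 0.04 mg/m3 at 1 week from -84.93 to -62.80. The arrays of 0.15 and 0.60 mg/m3 at 1 week scored from -3.01 to 14.03, the 25 arrays of 4 weeks from 9.53 to 40.92, and those of 0.08 mg/m3 at 1 week were spread from -64.71 to 5.46. The groups of 4 weeks also differed on this axis. Their controls scored from 28.52 to 35.35, 0.04 mg/m3 from 18.25 to 22.55 and 0.08 mg/m3 from 9.53 to 30.89. At 0.15 mg/m3 after 4 weeks the scores ran from 36.21 to 38.84, and at 0.60 mg/m3 from 35.25 to 40.92. The part of the axis in the member calls at 4 weeks was not tested. Between the controls of 4 weeks and of 1 week, 35.2% of all genes were called higher and 38.2% lower, where called means a limma adjusted p under 0.05. For this reason the main 1-week results are given below against the 1-week controls and again against the 4-week controls. Measured against the 4-week controls, the shares of all genes called higher were 45.6%, 38.4%, 29.0% and 33.3% from 0.04 to 0.60 mg/m3 at 1 week, and the shares called lower 36.0%, 26.3%, 13.6% and 16.1%. Of the 19 calls on members at 1 week, 6 held against the 4-week controls, 4 kept their direction without passing the test, and 9 turned. The values also follow this axis gene by gene: over the 50 arrays r with the axis was -0.98 for Dhrs3, -0.87 for Stra6, -0.77 for Aldh1a2, 0.72 for Rdh10, 0.68 for Aldh1a1, -0.43 for Cyp26b1 and 0.10 for Rbp4, against a median size of 0.76 over all genes. For Dhrs3, 3.47% of genes had an r at least as large in size.

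**Figure D1:**
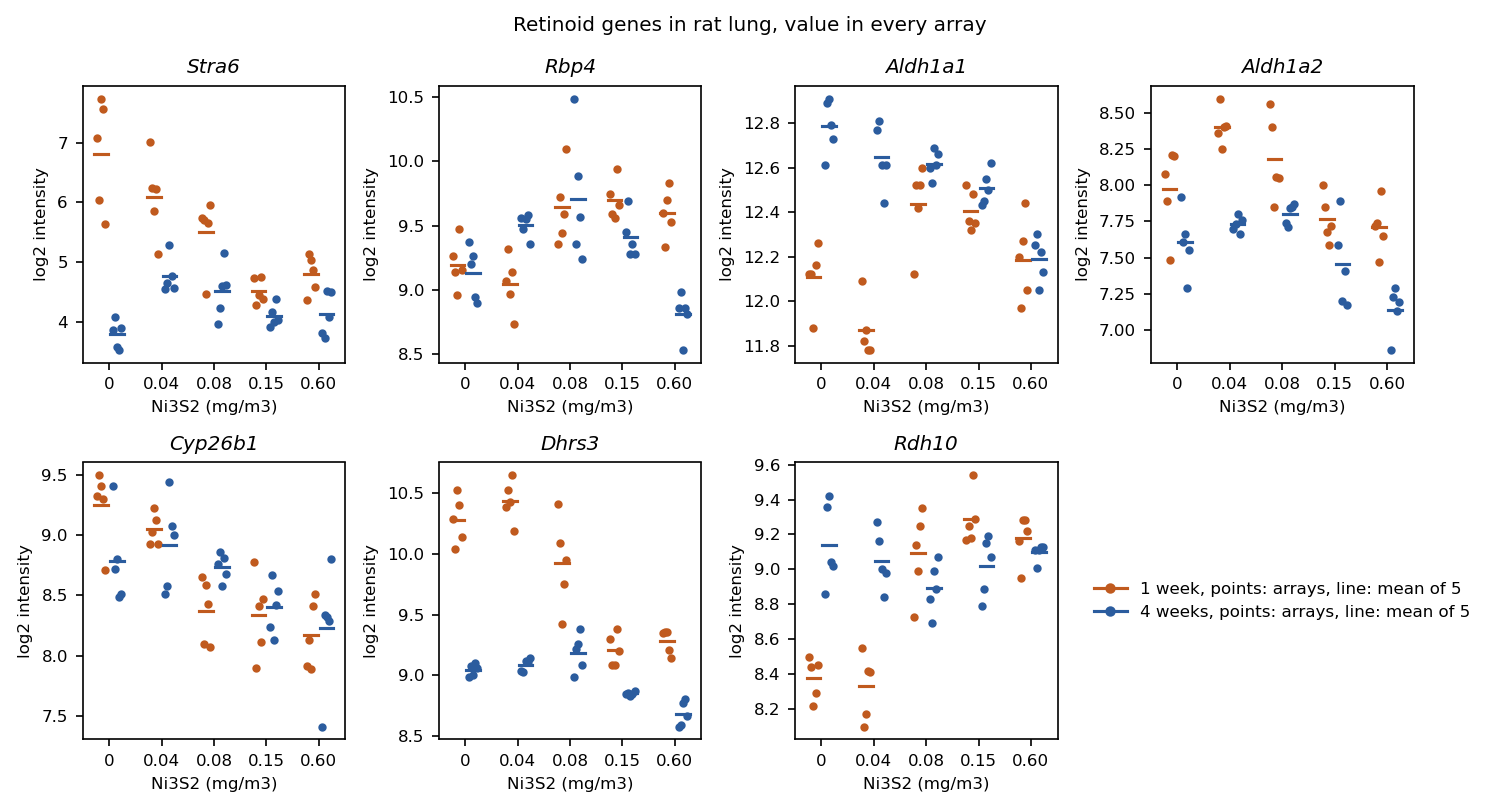
The log2 intensity (y axis) of the 7 measured genes in all 50 arrays is plotted by Ni3S2 concentration in mg/m3 (x axis), with 1-week arrays in orange and 4-week arrays in blue; points are arrays and short lines are means of 5. Stra6 and Dhrs3 are highest in the controls and the 0.04 mg/m3 group of 1 week, Aldh1a1 is highest in the 4-week controls, and the 5 Aldh1a1 values at 0.60 mg/m3 after 4 weeks (12.05 to 12.30) lie below those of the 4-week controls (12.61 to 12.91).

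The 4-week comparison at 0.60 mg/m3 had the most member calls at that duration, and all were downward. The enzymes that make retinoic acid were lower (Aldh1a1 by a factor of 1.51 and Aldh1a2 by 1.38), as were Cyp26b1, which degrades it (1.47), and Dhrs3, which reduces retinal (1.28). Of the 7 members 4 passed the test, all lower, where 7.90% of all genes were called lower and 9.47% higher. The median change of the 7 was -0.36 log2 units, against -0.005 over all genes. Rbp4, Rdh10 and Stra6 did not pass the test there. Markers of other cells rose in the same arrays: 5 of 7 dendritic cell markers, 4 of 8 neutrophil, 4 of 9 B and T cell and 5 of 10 alveolar type 2 cell markers were higher, while 2 of the alveolar type 2 and 4 of 9 endothelial markers were lower. Summed linear intensity ran from 955 to 1300 for the dendritic markers, against 601 to 695 in the 4-week controls, and from 3101 to 5498 for the neutrophil markers, against 1646 to 3083. The B and T cell sum ran from 1191 to 2073 against 844 to 1184, the alveolar type 2 sum from 40869 to 45101 against 36914 to 38281, and the endothelial sum from 7713 to 9180 against 9096 to 12201. Their part in the lower member values was not tested.

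Aldh1a1, a retinal dehydrogenase of adult epithelia, had values of 12.61, 12.89, 12.91, 12.79 and 12.73 in the 4-week controls. After 4 weeks at 0.60 mg/m3 the values were 12.25, 12.30, 12.05, 12.22 and 12.13. Every exposed array was below every control array, and the means were 12.19 ± 0.10 and 12.78 ± 0.12 (SD, n = 5 each). The difference was -0.59 ± 0.09 (SE), with a limma adjusted p of 7.8e-07. At the lower concentrations Aldh1a1 was -0.13, -0.17 and -0.28 below the same controls at 0.04, 0.08 and 0.15 mg/m3, with adjusted p of 0.32, 0.21 and 0.056, none of which passed. The step from 0.15 to 0.60 mg/m3 was -0.32 ± 0.09 (adjusted p = 0.025), and the trend over the concentration ranks was -0.13 ± 0.02 per step (adjusted p = 5.23e-07). Club cells are known for high aldehyde dehydrogenase levels, and their markers moved beside this result: 3 of the 6 measured were lower and 1 higher at 0.60 mg/m3 after 4 weeks. Their summed linear intensity ran from 24074 to 26695, against 28100 to 35174 in the 4-week controls, and its part in the Aldh1a1 result was not tested. In tissue such as this, fewer cells of a type and less RNA per cell cannot be told apart.

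Aldh1a2, the retinal dehydrogenase best known from the embryo and from mesothelium, had values of 6.86, 7.23, 7.29, 7.13 and 7.19 after 4 weeks at 0.60 mg/m3. In the controls of that time it had 7.92, 7.61, 7.66, 7.29 and 7.55. The lowest control (7.292) lay just above the highest exposed array (7.287), so the groups did not overlap but met. The difference was -0.47 ± 0.13 (SE, adjusted p = 0.0071), and the trend over concentrations was -0.12 ± 0.03 per rank (adjusted p = 0.0012). Of 8 mesothelial markers measured, 2 were lower and 1 higher at 0.60 mg/m3, with a median change of -0.31. Their mean log2 intensity ran from 6.54 to 7.14 there and from 7.07 to 7.29 in the controls. Their summed linear intensity went the other way (4780 to 5226, against 4317 to 4810), and their part in the Aldh1a2 result was not tested.

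Dhrs3, the retinal reductase, had values of 8.99, 9.08, 9.0, 9.10 and 9.06 in the controls and 8.58, 8.59, 8.77, 8.81 and 8.67 at 0.60 mg/m3. All exposed arrays lay below all controls. The difference was -0.36 ± 0.10 (SE, adjusted p = 0.010). At 0.15 mg/m3 the values of 8.85, 8.86, 8.83, 8.85 and 8.87 also lay below all controls, but the difference of -0.19 ± 0.10 did not pass over all genes (adjusted p = 0.41). In that comparison 1.92% of genes were called higher and 1.58% lower.

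Cyp26b1 gave the least secure of these calls. Its values were 9.41, 8.72, 8.80, 8.49 and 8.51 in the 4-week controls and 7.41, 8.34, 8.32, 8.29 and 8.80 at 0.60 mg/m3. Of the exposed arrays 4 lay below all controls and replicate 5 lay among them. The difference was -0.55 ± 0.19 (SE, adjusted p = 0.038). Without exposed replicate 1, the lowest array, it was -0.35 (adjusted p = 0.22), and without control replicate 1, the highest, it was -0.40 (adjusted p = 0.18). The call was also lost, by a small margin, without control replicate 2 or 3 or exposed replicate 4 (adjusted p from 0.051 to 0.063). The gene's other probe set gave -0.50 ± 0.18 (adjusted p = 0.050).

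Rbp4, the retinol carrier, was higher at 0.08 mg/m3. After 4 weeks at 0.08 mg/m3 its values were 10.49, 9.36, 9.89, 9.57 and 9.24, against 9.37, 9.20, 9.26, 8.94 and 8.90 in the controls. Of the 5 exposed arrays 3 exceeded all controls. The difference was 0.58 ± 0.15 (SE, adjusted p = 0.010), and it was the only member call there, where 5.67% of genes were called higher and 2.87% lower. It rested on replicate 1: without that array the difference was 0.38 (adjusted p = 0.056). That array also had the highest summed adipocyte markers (14652, 9 genes) and skeletal muscle markers (20995, 7 genes), against 2626 to 5056 and 156 to 215 in the 4-week controls. Replicate 3, with the next highest Rbp4, had 13786 and 412. Fat tissue is a known source of Rbp4, and the part of these markers in the result was not tested. At 0.60 mg/m3 the Rbp4 values of 8.86, 8.98, 8.53, 8.86 and 8.81 gave the lowest mean of the 10 groups. The difference from the controls was -0.33 (95% interval -0.63 to -0.03, adjusted p = 0.13), and from 0.15 mg/m3 it was -0.60 ± 0.15 (adjusted p = 0.012).

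Stra6, the retinol receptor, rose after 4 weeks at 0.04 mg/m3, the lowest concentration. Its values were 4.55, 4.66, 5.29, 4.77 and 4.56, all above the 3.87, 4.08, 3.58, 3.53 and 3.90 of the controls. The difference was 0.97 ± 0.29 (SE, adjusted p = 0.022), and it was the only member call there, where 8.29% of genes were called higher and 4.61% lower. The call was lost without control replicate 3 or 4 or exposed replicate 3 (adjusted p from 0.051 to 0.084). At the 3 higher concentrations the differences were 0.72, 0.30 and 0.33, with adjusted p of 0.12, 0.74 and 0.49, and the trend over ranks was 0.00 (95% interval -0.13 to 0.13). At 0.08 mg/m3, 4 of the 5 arrays exceeded all controls. Stra6 was called higher there with arrays weighted by their quality (adjusted p = 0.013) and in a fit to the 25 arrays of that time (adjusted p = 0.012). These levels are dim: the 4-week group means of 3.80 to 4.77 lie below the median of all probe sets on any array (5.25 to 5.61). The gene has 5 probe sets, and their changes at 0.04 mg/m3 were 0.97, 1.20, 0.33, 0.10 and -0.09, of which the first pair passed the test.

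Smooth muscle markers moved beside Stra6. All 10 were higher at 0.04 mg/m3 and 9 at 0.08 mg/m3 after 4 weeks. Their summed intensity ran from 3121 to 3519 in the 4-week controls, from 5849 to 8223 at 0.04 mg/m3, from 2208 to 3647 at 0.60 mg/m3, and from 7303 to 12562 in the 1-week controls, where Stra6 was also highest. Other markers were high at 0.04 mg/m3 after 4 weeks too: 10 of 11 heart muscle and 8 of 9 B and T cell markers were called higher there, as were 3 of 7 dendritic cell, 4 of 13 fibroblast and 2 of 7 skeletal muscle markers. The heart muscle sum ran from 12949 to 18337, against 2432 to 6125 in the 4-week controls, and the B and T cell sum from 2022 to 2504, against 844 to 1184. Exposed replicate 3, without which the Stra6 call was lost, had a skeletal muscle sum of 3251, where the other arrays of its group had 359 to 527 and the controls 156 to 215. Of the 10 smooth muscle markers, 8 were lower than in the 1-week controls at each of the 4 concentrations after 1 week. In those comparisons 11.8%, 23.5%, 33.7% and 32.3% of all genes were called lower, in order of concentration. The part of these markers in the Stra6 results was not tested.

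**Figure D2:**
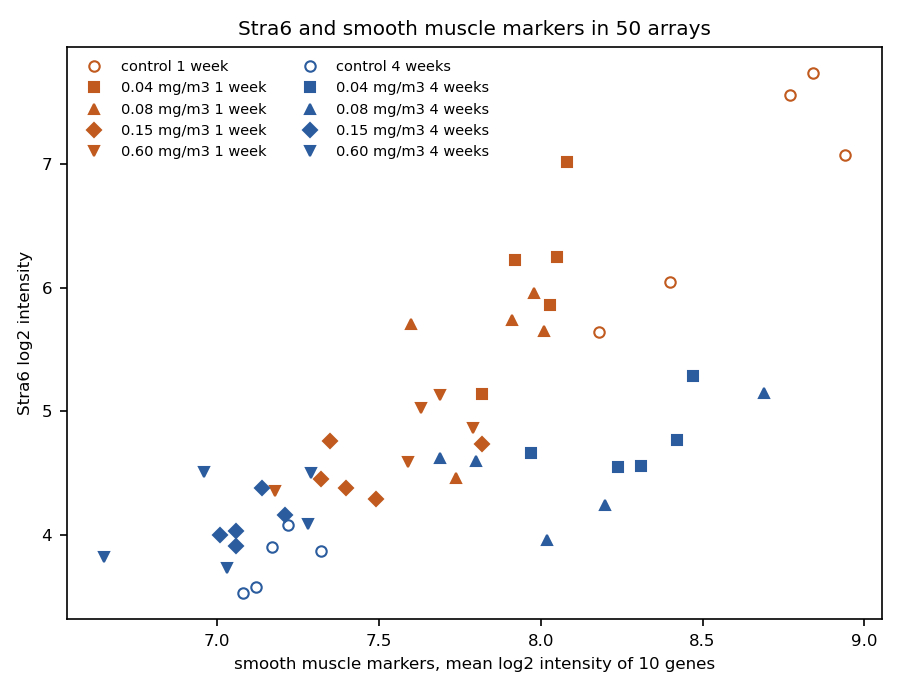
Each of 50 points is an array, with the mean log2 intensity of 10 smooth muscle markers on the x axis and the Stra6 log2 intensity on the y axis; colour gives the duration and shape the concentration. The 1-week controls (open orange circles) lie at the top right and the 4-week controls (open blue circles) at the bottom left, and the 0.04 mg/m3 arrays of 4 weeks (blue squares) lie to the right of the other 4-week arrays except those of 0.08 mg/m3.

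Rdh10, which makes retinal, passed no test against the controls at 4 weeks. With arrays weighted by their quality it was called lower at 0.08 mg/m3 (-0.31, adjusted p = 0.012). Its group means there ran from 8.90 at 0.08 mg/m3 to 9.14 in the controls, and the difference at 0.60 mg/m3 was -0.04 (95% interval -0.26 to 0.17). At 0.15 mg/m3 after 4 weeks limma called 0 of the 7 members, while Aldh1a1 and Cyp26b1 were under an unadjusted p of 0.05 (2 of 7, against 1880 of 13438 genes). A fit to the 25 arrays of that time called 2 there, Aldh1a1 (adjusted p = 0.012) and Dhrs3 (adjusted p = 0.043).

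**Figure D3:**
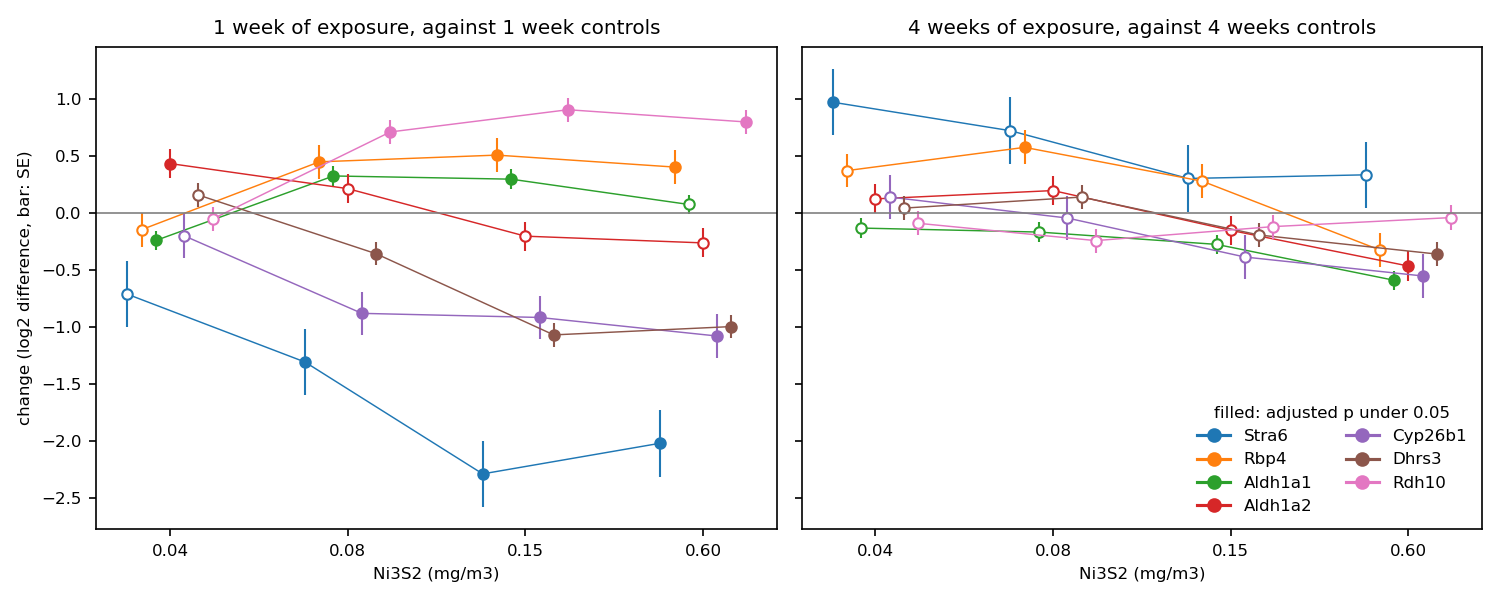
The change against controls of the same time (y axis, log2 difference, bars: SE) is plotted for each member and Ni3S2 concentration (x axis), with 1 week at the left and 4 weeks at the right; filled points passed an adjusted p of 0.05. At 1 week Stra6 reaches -2.29 and Rdh10 0.90, while at 4 weeks the filled points at 0.60 mg/m3 lie between -0.59 and -0.36.

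At 1 week the members divided into those above and those below the 1-week controls. Stra6, Cyp26b1 and Dhrs3 were lower at 0.08 mg/m3 and above, Rbp4 and Rdh10 were higher at the same concentrations, and Aldh1a1 was higher at 0.08 and 0.15 mg/m3. These counts stand in a background where a large part of all genes was called. At 0.08 mg/m3, 3 members were higher and 3 lower, where 25.1% and 23.5% of genes were. At 0.15 mg/m3 the same 3 and 3 were called, where 33.8% and 33.7% of genes were. At 0.60 mg/m3, 2 members were higher and 3 lower, where 32.8% and 32.3% of genes were. At 0.04 mg/m3, where 15.1% of genes were higher and 11.8% lower, Aldh1a2 was higher and Aldh1a1 lower.

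Stra6 had values of 7.08, 6.05, 7.74, 7.56 and 5.64 in the 1-week controls, the widest range of any member in any group. At 0.15 mg/m3 it had 4.74, 4.29, 4.45, 4.76 and 4.38, and at 0.60 mg/m3 4.36, 5.13, 5.03, 4.87 and 4.59. Both groups lay below all 1-week controls and above all 4-week controls, whose highest value was 4.08. The changes were -2.29 ± 0.29 (adjusted p = 2.99e-09) and -2.02 ± 0.29 (adjusted p = 5.94e-08), that is 4.89-fold and 4.06-fold lower. Against the 4-week controls the same arrays were higher by 0.73 (adjusted p = 0.040) and 1.00 (adjusted p = 0.0040). At 0.08 mg/m3 the change was -1.31 against the 1-week controls and 1.71 against the 4-week controls. All 5 probe sets of the gene were called lower at 0.15 mg/m3, by -0.42 to -2.63, and 4 of them at 0.60 mg/m3, where the dimmest had -0.18 (adjusted p = 0.10). At 0.08 mg/m3 3 were called lower, and the others had -0.21 (adjusted p = 0.34) and -0.03 (adjusted p = 0.84). At 0.04 mg/m3, where the probe set used had -0.71 and did not pass, 2 others were called lower (-0.84 and -0.46) and the dimmest higher (0.28, adjusted p = 0.029).

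Dhrs3 behaved likewise. Its values were 10.29, 10.04, 10.53, 10.40 and 10.14 in the 1-week controls and 9.35, 9.36, 9.36, 9.21 and 9.14 at 0.60 mg/m3, with no overlap. The change was -0.997 ± 0.10 (SE, adjusted p = 2.02e-11), and at 0.15 mg/m3 it was -1.07 ± 0.10 (adjusted p = 2.53e-12). Against the 4-week controls the changes were 0.24 (adjusted p = 0.052) and 0.16 (adjusted p = 0.20). At 0.08 mg/m3 the values ran from 9.42 to 10.41, as widely spread as that group's scores on the leading axis, and the change of -0.36 turned to 0.88 against the 4-week controls.

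At 0.08 mg/m3 and above, where Dhrs3 was lower than in the 1-week controls, Rdh10 was higher. Its values were 8.50, 8.44, 8.22, 8.29 and 8.45 in the 1-week controls and 9.17, 9.25, 9.18, 9.54 and 9.29 at 0.15 mg/m3. No exposed array overlapped the controls. The change was 0.90 ± 0.11 (SE, adjusted p = 4.15e-10), with 0.71 at 0.08 mg/m3 and 0.80 at 0.60 mg/m3. Against the 4-week controls these values were 0.15, -0.05 and 0.04, and none passed the test (adjusted p from 0.27 to 0.79). The other probe set of the gene gave 0.52 at 0.15 mg/m3 (adjusted p = 9.78e-06), but a controls' difference of 0.06 (adjusted p = 0.61) in place of 0.76.

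By the probe sets read, Cyp26b1 and Rbp4 were the members whose 1-week direction was the same against both sets of controls at 0.08 mg/m3 and above. Cyp26b1 had 9.33, 9.50, 9.41, 9.30 and 8.71 in the 1-week controls and 7.91, 8.13, 7.89, 8.41 and 8.51 at 0.60 mg/m3. The change was -1.08 ± 0.19 (SE, adjusted p = 3.11e-06), and against the 4-week controls it was -0.62 ± 0.19 (adjusted p = 0.0066). At 0.08 and 0.15 mg/m3 it was -0.88 and -0.92. Against the 4-week controls these changes were -0.42 (adjusted p = 0.053) and -0.45 (adjusted p = 0.052). The other Cyp26b1 probe set had means of 5.96, 5.87 and 5.75 in these groups, from the lowest concentration up. Its means were 6.83 in the 1-week controls and 6.1 in the 4-week controls. It differed between the control sets by -0.732 in place of -0.465, so less of its fall remained against the 4-week controls. That remainder was not tested. Rbp4 had 9.26, 9.14, 8.96, 9.47 and 9.15 in the 1-week controls and 9.75, 9.59, 9.56, 9.94 and 9.66 at 0.15 mg/m3, with no overlap. Its change of 0.51 ± 0.15 (adjusted p = 0.0024) was 0.57 (adjusted p = 0.0018) against the 4-week controls. At 0.08 and 0.60 mg/m3 Rbp4 was higher by 0.45 and 0.40, and these calls were lost without 0.08 mg/m3 replicate 5 (0.33, adjusted p = 0.069), or without control replicate 3 or 0.60 mg/m3 replicate 4 (adjusted p of 0.054 and 0.052).

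Aldh1a1 had values of 12.12, 12.12, 11.88, 12.16 and 12.26 in the 1-week controls. At 0.15 mg/m3 all values (12.32 to 12.52) were above them, by 0.30 ± 0.09 (SE, adjusted p = 0.0020), and at 0.08 mg/m3 the mean was higher by 0.32. At 0.60 mg/m3 the difference was 0.07 (95% interval -0.10 to 0.24). Against the 4-week controls all 4 groups were lower, by -0.92, -0.35, -0.38 and -0.60 in order of concentration, each called. The lower value at 0.04 mg/m3 (-0.24, adjusted p = 0.031) was lost without control replicate 1, 2, 4 or 5 or exposed replicate 2, 4 or 5 (adjusted p from 0.054 to 0.096). It was also lost when arrays were centred on their medians (-0.14, adjusted p = 0.15).

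Aldh1a2 at 0.04 mg/m3 had 8.36, 8.60, 8.25, 8.40 and 8.41, all above the 1-week controls of 8.08, 7.89, 7.48, 8.21 and 8.20. The change was 0.43 ± 0.13 (SE, adjusted p = 0.012), and without control replicate 3, the lowest, it was 0.31 (adjusted p = 0.053). It was 0.80 against the 4-week controls. The gene fell over the concentrations at 1 week, by -0.12 ± 0.03 per rank (adjusted p = 0.00032). All 7 members had a called trend over ranks at 1 week, 3 upward and 4 downward. Of all 13438 genes 74.8% had one, 4850 upward and 5207 downward. After 4 weeks 4 members had one, all downward (Aldh1a1, Aldh1a2, Cyp26b1 and Dhrs3). Of all 13438 genes 26.3% did, 1742 upward and 1791 downward.

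**Figure D4:**
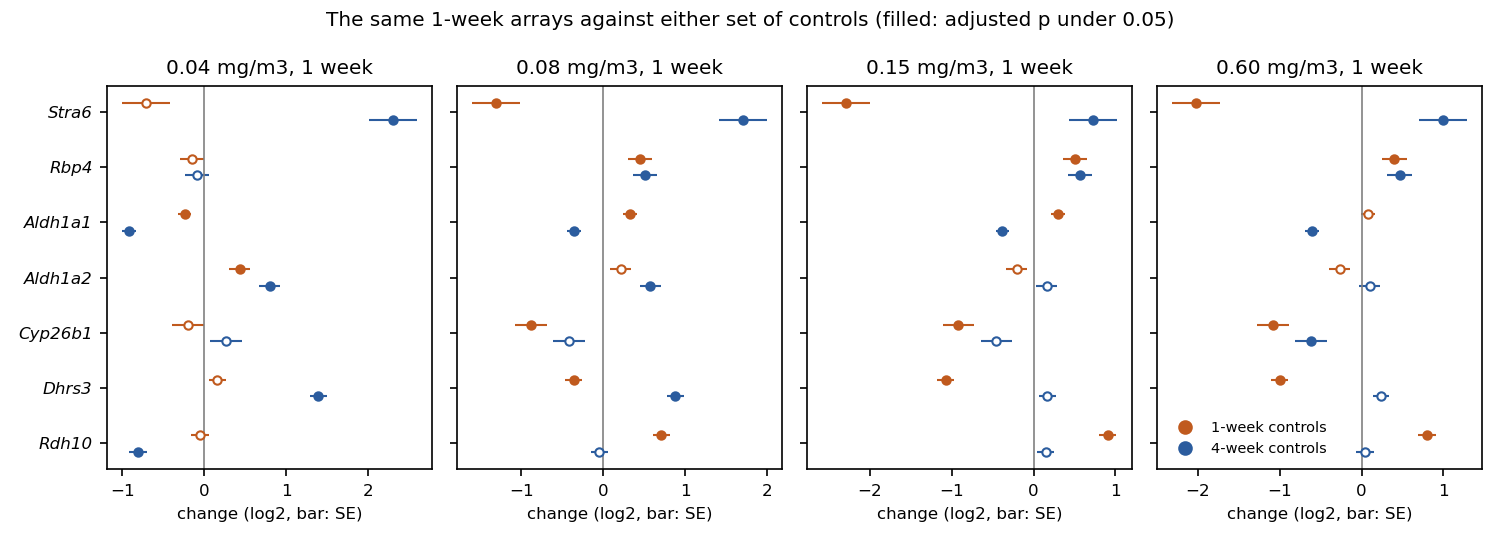
For each concentration at 1 week, the change (x axis, log2, bars: SE) of each gene (y axis) is drawn against the 1-week controls in orange and against the 4-week controls in blue; filled points passed an adjusted p of 0.05. The Stra6 and Dhrs3 points at 0.08 mg/m3 and above lie on opposite sides of 0, whereas those of Rbp4 and Cyp26b1 lie on the same side.

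The arrays of unexposed animals also differed between the times. From the 1-week to the 4-week controls Stra6 fell by 3.02 ± 0.29 log2 units (SE, 8.10-fold, adjusted p = 1.51e-12), the largest difference of the set in any comparison with a control. Dhrs3 fell by 1.24 ± 0.10, Cyp26b1 by 0.46 ± 0.19 and Aldh1a2 by 0.36 ± 0.13, while Rdh10 rose by 0.76 ± 0.11 and Aldh1a1 by 0.68 ± 0.09. These 6 of 7 calls, 2 upward and 4 downward, stand beside the 35.2% and 38.2% of all genes given above. The Cyp26b1 call was lost without control replicate 2 or 3 of 1 week, or 4 or 5 of 4 weeks (adjusted p from 0.061 to 0.080). Rbp4 differed by -0.06 (95% interval -0.36 to 0.24). Age, time in the study, tissue sampling and array processing cannot be told apart in these controls, and the labels name no batch.

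The change by exposure differed between the durations for several members, as the difference of the changes tests directly. At 0.04 mg/m3 Stra6 was the member called, at 1.68 ± 0.41 (adjusted p = 0.0048), where 12.0% of genes were called. At 0.08 mg/m3 there were 5 (44.4% of genes), at 0.15 mg/m3 4 (56.8%) and at 0.60 mg/m3 5 (56.7%). At 0.60 mg/m3 these were Stra6 at 2.35, Dhrs3 at 0.64, Rbp4 at -0.73, Aldh1a1 at -0.67 and Rdh10 at -0.84. Since these differences hold both control sets, the levels at equal concentration were also compared. That comparison holds no controls. Duration cannot be told apart in it from age, time in the study, tissue sampling and array processing. Between the 4-week and the 1-week controls 73.5% of all genes were called. Between the 4-week and the 1-week arrays of 0.60 mg/m3, 53.8% of all genes were called, and 3 of the 7 members. The 4-week arrays were lower in Rbp4 by -0.79 ± 0.15 (adjusted p = 2.11e-05), in Dhrs3 by -0.60 ± 0.10 (5.59e-06) and in Aldh1a2 by -0.57 ± 0.13 (0.00023). Rdh10 differed there by -0.08 (0.54), Aldh1a1 by 0.01 (0.94), Cyp26b1 by 0.06 (0.81) and Stra6 by -0.66 (0.052).

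Ordered by group mean, Stra6 ran from 6.81 in the 1-week controls to 3.80 in the 4-week controls, and of the 9 pairs of neighbours in that order the 0.08 and 0.60 mg/m3 groups of 1 week differed (adjusted p = 0.049). Dhrs3 ran from 10.44 at 0.04 mg/m3 after 1 week to 8.69 at 0.60 mg/m3 after 4 weeks, with steps on either side of the 0.08 mg/m3 group of 1 week (adjusted p of 0.0037 and 7.64e-06). Rdh10 had its step between the 0.08 mg/m3 group of 4 weeks (8.90) and the 1-week controls (8.38, adjusted p = 3.54e-05), with 8 groups above it and 2 below. Aldh1a1 ran from 12.78 in the 4-week controls to 11.87 at 0.04 mg/m3 after 1 week, with steps below the 0.15 mg/m3 group of 1 week (adjusted p = 0.035) and below the 1-week controls (0.031). No neighbours differed in the orders of Rbp4 (9.71 to 8.81), Aldh1a2 (8.40 to 7.14) or Cyp26b1 (9.25 to 8.17).

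Over the 50 arrays Stra6 and Dhrs3 were the pair of members that moved most closely together, with r = 0.89, and 0.64 after the group means were taken off. Rdh10 and Aldh1a1 had r = 0.63, and 0.70 within groups. Rdh10 and Dhrs3 had r = -0.70 over all arrays and -0.21 within groups. The arrays share the 10 groups and the leading axis, so these are descriptions. By the same measure the genes most like Dhrs3 were Nbl1, Mlycd and Mif4gd (r from 0.986 to 0.987), and those most like Stra6 were Dbn1, Hs3st1 and Mrgprf (0.935 to 0.942). For Rdh10 they were Sec23b, Ift52 and Pts (0.926 to 0.929), for Aldh1a1 Gsta1, Cpe and Slc23a2 (0.911 to 0.922), and for Aldh1a2 Prph, Cyb5r3 and Nkain4 (0.875 to 0.883). Cyp26b1 was nearest to Klf2, Dusp1 and Gas6 (0.776 to 0.793) and Rbp4 to Atp5pd, Ndufa4 and Pxmp2 (0.749 to 0.774). Over the 10 group means these r ran from 0.826 for Atp5pd to 0.995 for Nbl1.

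Of 79 other retinoid genes in 5 lists, 64 were measured. At 0.60 mg/m3 after 4 weeks 3 were higher and 11 lower, beside the shares of all genes given above. After 1 week 16 were higher and 23 lower, where 32.8% and 32.3% of all genes were. The 1-week counts depend on the controls. Against the 4-week controls, a comparison added after the data were seen, 11 of the 64 were higher and 12 lower, and in the unexposed controls alone 21 were higher and 23 lower at 4 weeks than at 1 week. Of the 22 genes named below for a call at 1 week, 3 kept it against the 4-week controls, 5 kept the direction without passing and 14 turned, 8 of these with a call in the other direction. The median change of the 64 at 4 weeks was -0.11, against -0.005 over all genes.

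Among the retinol and retinal enzymes 5 of 14 passed the test at 0.60 mg/m3 after 1 week, all higher, with a median of 0.16. Of all genes 32.8% were called higher and 32.3% lower in that comparison. In the controls alone 7 of the 14 were higher and 1 lower at 4 weeks than at 1 week, with a median of 0.30, and against the 4-week controls 1 was higher and 1 lower. Dhrs4, Rdh11 and Dhrs7, reductases and dehydrogenases of the same enzyme family as Rdh10 and Dhrs3, rose by 1.59 ± 0.14, 1.14 ± 0.09 and 1.10 ± 0.10 (SE) against the 1-week controls, and the aldo-keto reductases Akr1b8 and Akr1c1 by 0.97 and 0.21. Rdh11 was still called higher against the 4-week controls (0.33 ± 0.09), while Dhrs4, Dhrs7, Akr1b8 and Akr1c1 had 0.32, -0.15, 0.03 and 0.02 and did not pass. After 4 weeks 2 of 14 passed, both lower, Dhrs9 by -0.29 and Rdh7 by -0.19, where 7.90% of all genes were called lower. Among the retinoic acid-degrading enzymes, Cyp2s1 was lower at both times (-1.55 ± 0.16 and -1.03 ± 0.16), and Cyp3a9 was higher at 1 week (0.99) with -0.38 at 4 weeks, which did not pass. Cyp2s1 was lower at 1 week against the 4-week controls too (-0.55 ± 0.16), and Cyp3a9 turned to -0.57 ± 0.18.

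The receptor list also holds coregulators of receptors (Nrip1, Ncoa1, Ncoa2 and Ncor1), and 14 of its genes were measured. Of these, 10 were lower and 2 higher at 0.60 mg/m3 after 1 week, with a median of -0.51. Of all genes 32.3% were lower and 32.8% higher there. In the controls alone 8 were lower and 4 higher at 4 weeks than at 1 week, with a median of -0.35. Against the 4-week controls 4 were lower (Nr2f2 and the coregulators Nrip1, Ncoa1 and Ncor1) and 3 higher, with a median of -0.05. The retinoid receptors Rxrb and Rarg fell by 1.28 ± 0.10 and 0.93 ± 0.12, the lipid-activated receptors Ppard and Nr1h3 by 0.91 and 0.83, and Pparg rose by 0.84. All 5 turned against the 4-week controls: Rarg and Ppard were then called higher (0.32 and 0.38), and Rxrb, Nr1h3 and Pparg had 0.24, 0.23 and -0.33, which did not pass. After 4 weeks 3 passed, all lower: Rxrg, a partner of the retinoic acid receptors, by -0.72 ± 0.12, and the orphan receptors Nr2f2 and Nr2f1 by -0.37 and -0.30. Of 13 carrier and storage genes 4 were lower and 1 higher after 1 week, and 1 each after 4 weeks. After 4 weeks 7.90% of all genes were called lower and 9.47% higher. Against the 4-week controls 3 of the 13 were higher and 3 lower at 1 week, where 33.3% and 16.1% of all genes were. Crabp1, a cytosolic carrier of retinoic acid, was lower at both times (-1.36 ± 0.23 and -0.68 ± 0.23). Scarb1, a lipoprotein receptor, was lower at 1 week (-0.56) and higher at 4 weeks (0.49). Dgat1 and Pnpla4, which act on retinyl esters, were lower at 1 week (-0.81 and -0.75), and lipoprotein lipase, Lpl, was higher (0.55). These turned as well against the 4-week controls, with Scarb1, Dgat1 and Pnpla4 called higher (0.60, 0.70 and 0.42) and Lpl lower (-0.41), while Crabp1 had 0.27 and did not pass.

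Among 18 genes known to respond to retinoic acid, 7 were higher and 8 lower at 0.60 mg/m3 after 1 week, and 2 were higher and 4 lower after 4 weeks. Of all genes 32.8% were called higher and 32.3% lower at 1 week, and 9.47% and 7.90% at 4 weeks. Against the 4-week controls 4 of the 18 were higher and 2 lower at 1 week, where 33.3% and 16.1% of all genes were. Bhlhe40, a transcription factor gene that also responds to hypoxia, rose by 1.75 ± 0.14 and 1.35 ± 0.14 at the 2 times. Bhlhe40 also rose against the 4-week controls at 1 week (1.41 ± 0.14). Hoxa4 fell by 0.82 and 0.48 against the controls of each time, and had -0.003 at 1 week against the 4-week controls. Meis2 and Meis1, homeobox genes, fell by 0.70 ± 0.12 and 0.48 ± 0.09 after 4 weeks, and Rarres1 rose by 0.85 ± 0.18. Elastin, Eln, Hoxb5 and Pdgfa were lower at 1 week (-1.42, -1.17 and -0.85) and did not pass at 4 weeks (0.02, -0.29 and -0.11). Their 1-week values against the 4-week controls were -0.28 and 0.20, which did not pass, and 0.30 for Pdgfa, which was called higher.

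**Figure D5:**
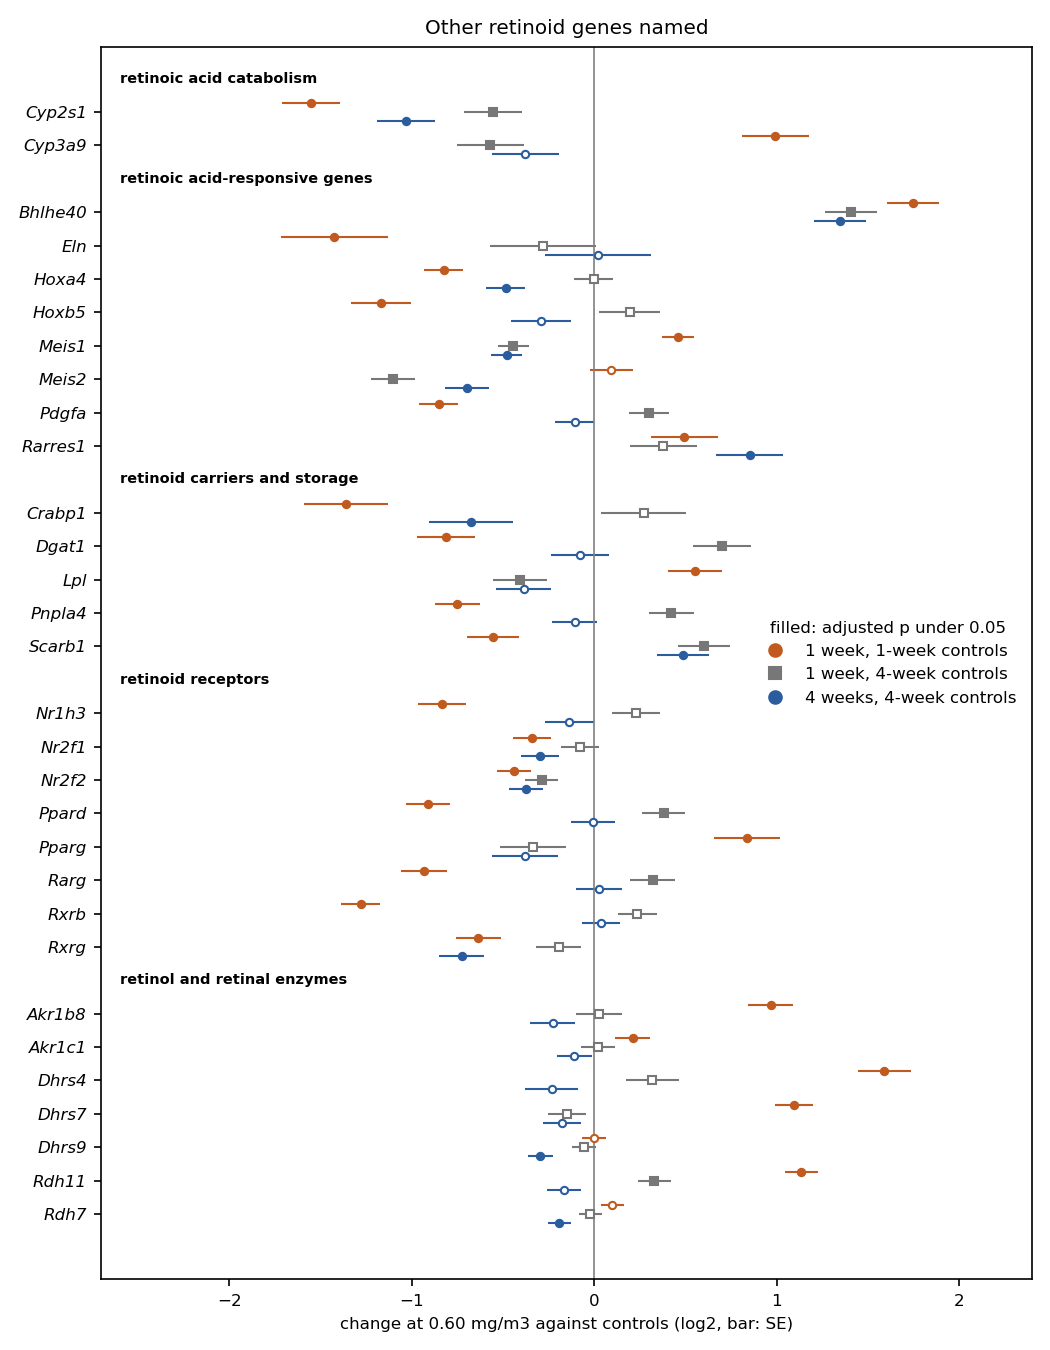
The change at 0.60 mg/m3 (x axis, log2, bars: SE) is plotted for the other retinoid genes named (y axis, grouped by list), against controls of the same time for 1 week in orange and 4 weeks in blue, and for 1 week against the 4-week controls as grey squares; filled points passed an adjusted p of 0.05. Cyp2s1, Crabp1 and Hoxa4 lie below 0 at both times and Bhlhe40 above 0 at both, in the comparisons with controls of the same time; the grey squares of Rxrb, Rarg, Ppard, Nr1h3 and Pparg lie on the other side of 0 from the orange points.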

How the data were processed

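Gene expression in lung was measured on 50 arrays, each from 50 to 150 ng of total RNA. The deposited values are log2 intensities for 31042 probe sets, made by the authors with Partek and RMA per the submitters' processing notes. Their versions and the set of arrays normalised together were not given in the sources used here. Of the probe sets 19063 carried 1 gene symbol, 572 several and 11407 none. The probe set with the highest mean was kept for each of 13438 genes. RMA brings arrays to a common distribution, so changes are relative to the other genes on an array. The number of arrays limits the precision.

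A single limma model (limma 3.58.1, R 4.3.3) with a mean for each of 10 groups was fitted to all genes, with Benjamini-Hochberg adjustment over genes within a comparison, two-sided, called at 0.05. It was tested on simulated data. All members are named, and of the other retinoid genes up to 5 called per list with the largest change at 0.60 mg/m3 at either time. The members, lists and tests were chosen with earlier results of these data known. Alternatives are in the closing section.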

Additional observations from a re-analysis of the deposited data

Results flagged for a closer look

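In 4 of 70 groups of 5 arrays (7 members in 10 groups) an array lay far from the others by Dixon's test, about as many as the 1 in 20 that chance flags. Stra6 was at 4.46 in replicate 3 of 0.08 mg/m3 at 1 week, where the next array had 5.65. Aldh1a1 was at 12.09 in replicate 1 of 0.04 mg/m3 at 1 week, where the next had 11.87. Cyp26b1 was at 8.71 in replicate 5 of the 1-week controls, where the next had 9.30. Rdh10 was at 9.01 in replicate 2 of 0.60 mg/m3 at 4 weeks, where the next had 9.11.

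The change by exposure differed between the durations in 15 tests of the 4-week change minus the 1-week change, all in limma. For Stra6 the difference was 1.684, 2.029, 2.591 and 2.354 log2 units from the lowest to the highest concentration. For Aldh1a1 it was -0.492, -0.572 and -0.665, for Dhrs3 0.497, 0.877 and 0.635, and for Rdh10 -0.953, -1.025 and -0.839, each at the 3 concentrations from 0.08 mg/m3 up. Cyp26b1 differed at 0.08 mg/m3 (0.836) and Rbp4 at 0.60 mg/m3 (-0.728). These differences take in the 1-week controls, which stood apart on the leading axis.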

How the results depend on the processing

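Of the 57 calls on members all kept their side of the threshold under array weights, quantile normalization, the intensity trend, no variance moderation, the mean of all probe sets and without the dimmest 25% of genes. When the 4-week controls served for the 1-week arrays, 9 of 19 calls turned: Stra6 to 1.71, 0.729 and 0.998 from 0.08 mg/m3 up, Dhrs3 to 0.878, 0.165 and 0.238, Aldh1a1 to -0.351 and -0.379 at 0.08 and 0.15 mg/m3, and Rdh10 to -0.047 at 0.08 mg/m3. The counts of members called at 0.04 and 0.15 mg/m3 then became 5 and 3, from 2 and 6. With the dimmest of the 5 Stra6 probe sets 4 calls turned: the 4-week change at 0.04 mg/m3 (-0.093) and the differences between durations at 0.04, 0.08 and 0.60 mg/m3 (-0.377, -0.045 and -0.08). Over all other probe sets of the members 42 of 56 calls held, and 10 were lost in the same direction, 9 of Stra6 and the controls' difference of Rdh10. For the turns the cause was not tested beyond the change of controls or probes.

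A minimum change of 1.5-fold left 0, 0, 3 and 3 members called at 1 week in order of concentration, 0 at 0.04, 0.08 and 0.60 mg/m3 after 4 weeks, 0, 0, 2 and 1 for the differences between durations, 2 for the controls and 0 and 0 for the trends. Other settings moved counts too. Array weights kept all 57 calls and added 14, among them Rdh10 at 0.08 mg/m3 after 4 weeks. They gave 7 and 6 members at 0.15 and 0.60 mg/m3 after 1 week, 3, 4, 2 and 5 in order of concentration after 4 weeks, 2, 5 and 6 for the differences at 0.04, 0.15 and 0.60 mg/m3, and 5 for the 4-week trend. The pair of groups fitted alone gave 1 at 0.04 mg/m3 after 1 week and 2, 0 and 2 at 0.04, 0.08 and 0.15 mg/m3 after 4 weeks. The 25 arrays of a duration gave 1 at 0.04 mg/m3 after 1 week and 2 and 2 at 0.08 and 0.15 mg/m3 after 4 weeks. At 0.15 mg/m3 after 4 weeks, 1 was called without the dimmest genes, with the intensity trend and with arrays centred on their medians, which also gave 1 at 0.04 mg/m3 after 1 week. Of the single calls, 46 of 57 were lost under the 1.5-fold minimum, 5 of 31 with the pair of groups alone, 1 of 36 with the 25 arrays, and 24 of 830 when an array was left out. Leaving out each array in turn gave 1 to 3 members at 0.04 mg/m3 after 1 week, and 0 to 1 at 0.04, 0.08 and 0.15 mg/m3 after 4 weeks. The count of all genes called moved by over 1.5 times in some of these. At 0.04 mg/m3 after 1 week it went from 3614 to 2261 and 2327 without exposed replicate 4 or 5. At 0.04 mg/m3 after 4 weeks it went from 1734 to 948 without control replicate 2. Without exposed replicate 3 or 4 of that group it was 971 and 991. At 0.08 mg/m3 after 4 weeks it went from 1147 to 683 without control replicate 2 and to 606 without exposed replicate 4.

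With a replicate block all 57 calls held, and 4 members were again called at 0.60 mg/m3 after 4 weeks. Samples with the same number did not deviate together (median r -0.007 over 225 pairs, 62 above 0.1), so the numbers do not pair the animals.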
